A study of Mus musculus with 230 samples.

Results

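The dorsal striatum (CPu, caudate putamen) of male C57BL/6J mice was examined after 24 h of withdrawal, in mice that had self-administered cocaine (C24) and in mice that had self-administered saline (S24). These libraries were chosen by their labels, as dorsal striatum with no challenge injection, and they were 16 of the 230 libraries of the series, 8 C24 and 8 S24. Each library carried its own mouse number, and the number of every one of the 16 mice also occurred on a nucleus accumbens (NAc) library. Mice are called here by the titles of their dorsal striatum libraries, such as Cpu-194. All mice were of the C57BL/6J inbred strain, with no transgene or mutation named, and the tissue was dissected whole, so each value mixes all cell types of the piece, and fewer cells of a type and less RNA per cell cannot be told apart. Elsewhere in the series, mice were kept for 30 d of withdrawal and injected with cocaine or saline 1 h before tissue collection. Of these, the present comparison uses the dorsal striatum after cocaine self-administration and a saline injection (CS, 6 libraries) and after saline self-administration and a saline injection (SS, 7 libraries).

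The dorsal striatum receives dopamine from the midbrain and glutamate from the cortex, and it is known for habit learning and for the shift from occasional to compulsive drug seeking. Most of its neurons are GABAergic projection neurons. Those of the direct pathway carry the dopamine receptor D1 and make dynorphin and substance P, and those of the indirect pathway carry the dopamine receptor D2 and the adenosine receptor A2a and make enkephalin. Cocaine blocks the dopamine transporter, and the dopamine that accumulates acts on cAMP signalling, on immediate early genes and on the peptides of both pathways. At 24 h after the last intake the acute drug action is over and early withdrawal has begun.

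The 8 C24 libraries held 21544336 to 26497610 counts and the 8 S24 libraries 15981104 to 28701555 counts. The S24 library of mouse Cpu-182 was the smallest, and the next smallest of S24 held 23458326 counts. None of 6 library measures, among them the total, the number of genes detected and the share of counts in the 50 highest genes, separated the groups (exact 2-sided permutation tests, p = 0.504 to 0.968, and 0.922 to 0.968 after Benjamini-Hochberg adjustment over the 6). By Drd1 and Slc6a3 the dissection matched its label. Markers of cortex and of ventral striatum varied between libraries and are given below. Drd1, the dopamine receptor of the direct pathway, had 349 to 417 CPM (counts scaled to a common library total) in C24 and 395 to 426 CPM in S24 dorsal striatum, against at most 313 CPM in the 24 h libraries of the nucleus accumbens and at most 66.6 CPM in those of the other regions. Slc6a3, the dopamine transporter of midbrain neurons, did not exceed 1.01 CPM in the 16 libraries. The 37 mitochondrially encoded genes of the table were listed with 0 counts in all 230 libraries, so no mitochondrial share could be computed.

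No gene passed the test between C24 and S24. Of 16609 genes tested with edgeR's quasi-likelihood test, 0 (0%) had an adjusted p under 0.05, and the smallest adjusted p was 0.641. At an unadjusted p under 0.05 there were 889 genes (5.35%), 633 higher in C24 (3.81%) and 256 lower in C24 (1.54%). DESeq2 and limma voom also called 0 genes, with 746 higher and 325 lower genes for DESeq2 and 710 higher and 332 lower genes for limma voom at an unadjusted p under 0.05. The median log2 fold change over all genes tested was 0.00. The median standard error was 0.0901 on the log2 scale, and for 84.3% of the genes the 95% interval of the log2 fold change lay wholly within a 1.5-fold difference in either direction. Among the 9814 genes with a mean of at least 10 CPM that share was 99.1%. Among the 2228 genes with a mean under 1 CPM it was 23.8%, so for most scarce transcripts a difference of that size lay within the interval. How much of this was due to depth and how much to the spread between mice was not tested.

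The genes with the smallest p in the direction of higher values in C24 were mostly genes induced by interferon. The 10 highest-ranked were Tgtp2, Gbp4, Lag3, Tnfsf10, Nlrc5, Vwf, H2-Q7, Esyt1, Psmb9 and Ankrd24, each with an adjusted p of 0.641. Interferons are cytokines that switch on many antiviral and antigen-presentation genes. Interferon gamma in particular induces guanylate-binding proteins (Gbp genes) and immunity-related GTPases (Irg genes, Tgtp1 and Tgtp2), which attack the vacuoles of intracellular pathogens, together with the class I antigen-presentation pathway. Promoters are shown for Tgtp2 and Tnfsf10 of the 10, and for Gbp2 and Irgm1, a Gbp and an Irg gene outside the 10. Each runs from 250 bases before to 50 bases after the RefSeq start of the gene (GRCm38.p6). Capitals mark matches to the core of the interferon-stimulated response element (GAAA, any 2 bases, then GAAA again) and to TTCNNNGAA, the gamma-activated sequence. The first was searched on both strands, the second equals its own reverse complement, and all sequences are written in the direction of transcription. The promoters are chr3:142620413-142620712 on the plus strand for Gbp2, chr11:48871371-48871670 on the minus strand for Irgm1, chr11:49064163-49064462 on the minus strand for Tgtp2 and chr3:27316827-27317126 on the plus strand for Tnfsf10.
Gbp2: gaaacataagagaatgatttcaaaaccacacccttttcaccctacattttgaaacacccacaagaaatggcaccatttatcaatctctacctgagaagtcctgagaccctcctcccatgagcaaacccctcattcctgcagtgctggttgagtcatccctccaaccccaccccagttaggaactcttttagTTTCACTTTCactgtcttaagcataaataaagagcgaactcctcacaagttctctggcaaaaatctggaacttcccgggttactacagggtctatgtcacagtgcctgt
Irgm1: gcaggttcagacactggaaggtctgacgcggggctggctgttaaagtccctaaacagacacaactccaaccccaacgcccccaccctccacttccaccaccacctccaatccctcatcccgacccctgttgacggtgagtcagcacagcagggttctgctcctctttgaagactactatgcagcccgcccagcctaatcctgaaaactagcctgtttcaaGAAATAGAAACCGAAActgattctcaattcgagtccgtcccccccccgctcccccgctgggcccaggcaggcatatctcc
Tgtp2: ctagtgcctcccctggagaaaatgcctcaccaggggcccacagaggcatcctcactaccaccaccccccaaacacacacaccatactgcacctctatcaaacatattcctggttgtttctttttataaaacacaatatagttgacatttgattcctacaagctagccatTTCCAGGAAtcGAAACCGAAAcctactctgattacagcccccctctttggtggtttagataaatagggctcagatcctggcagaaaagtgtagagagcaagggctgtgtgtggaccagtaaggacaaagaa
Tnfsf10: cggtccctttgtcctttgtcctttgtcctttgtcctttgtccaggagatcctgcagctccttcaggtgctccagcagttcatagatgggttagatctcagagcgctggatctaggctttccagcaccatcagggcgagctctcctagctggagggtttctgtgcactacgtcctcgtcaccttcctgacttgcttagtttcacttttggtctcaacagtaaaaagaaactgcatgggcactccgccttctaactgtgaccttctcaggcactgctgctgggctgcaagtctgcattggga

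In Gbp2 the capitals are 1 match to the response element core read on the opposite strand, in Irgm1 they are 2 overlapping matches, and in Tgtp2 they are 1 match to each motif, side by side. The Tnfsf10 window held neither motif. Over all 32851 promoters of the RefSeq table, 3.44% held the response element core and 8.30% held TTCNNNGAA. Among the 10 promoters found for the interferon-induced GTPase and guanylate-binding genes, 8 held the response element core and 5 held TTCNNNGAA. Among the 15 promoters of the class I antigen presentation genes the counts were 3 and 2, and among the 29 promoters of the other interferon pathway genes they were 9 and 9. A match describes the letters and not a bound site.

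Gbp4, a guanylate-binding protein (chr5:105115767-105139586, minus strand), had 2.87, 3.53, 5.43, 22.7, 1.65, 18.3, 3.35 and 28.4 CPM in the C24 mice Cpu-171, Cpu-175, Cpu-183, Cpu-194, Cpu-195, Cpu-203, Cpu-214 and Cpu-223. In the S24 mice Cpu-182, Cpu-185, Cpu-191, Cpu-193, Cpu-201, Cpu-204, Cpu-205 and Cpu-225 it had 2.56, 1.02, 7.87, 2.06, 1.09, 1.096, 0.959 and 3.63 CPM. Thus 3 C24 mice (Cpu-194, Cpu-203 and Cpu-223) lay above every S24 mouse, the other C24 mice lay within the range of the S24 mice, and the highest S24 mouse was Cpu-191. The log2 fold change was 2.09 (standard error 0.50, adjusted p = 0.641), and all 8 C24 mice lay above the S24 median. It remained positive when any single mouse was left out, between 1.71 without C24 mouse Cpu-223 and 2.62 without S24 mouse Cpu-191.

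Tgtp2, an immunity-related GTPase, ran from 0.261 through a median of 1.09 to 5.26 CPM in C24 mice and from 0 through 0.399 to 1.505 CPM in S24 mice. Its highest values were again those of C24 mice Cpu-194, Cpu-223 and Cpu-203, and its log2 fold change was 2.07 (standard error 0.50). Of the 31-base words of its transcripts, 90.5% also occur in other genes, so its reads and those of Tgtp1 may have been divided uncertainly. Nlrc5, the transactivator of class I genes, had 0.729 to 4.68 CPM (median 1.67) in C24 mice and 0.506 to 1.54 CPM (median 0.669) in S24 mice, with a log2 fold change of 1.48 (standard error 0.37). Tnfsf10, which encodes the death ligand TRAIL, had 3.19 to 8.10 CPM (median 4.36) in C24 mice and 1.52 to 5.51 CPM (median 2.23) in S24 mice, with a log2 fold change of 0.91 (standard error 0.22). For both genes the highest 3 libraries were those of C24 mice Cpu-194, Cpu-203 and Cpu-223, and the other C24 values overlapped those of S24.

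**Figure D1:**
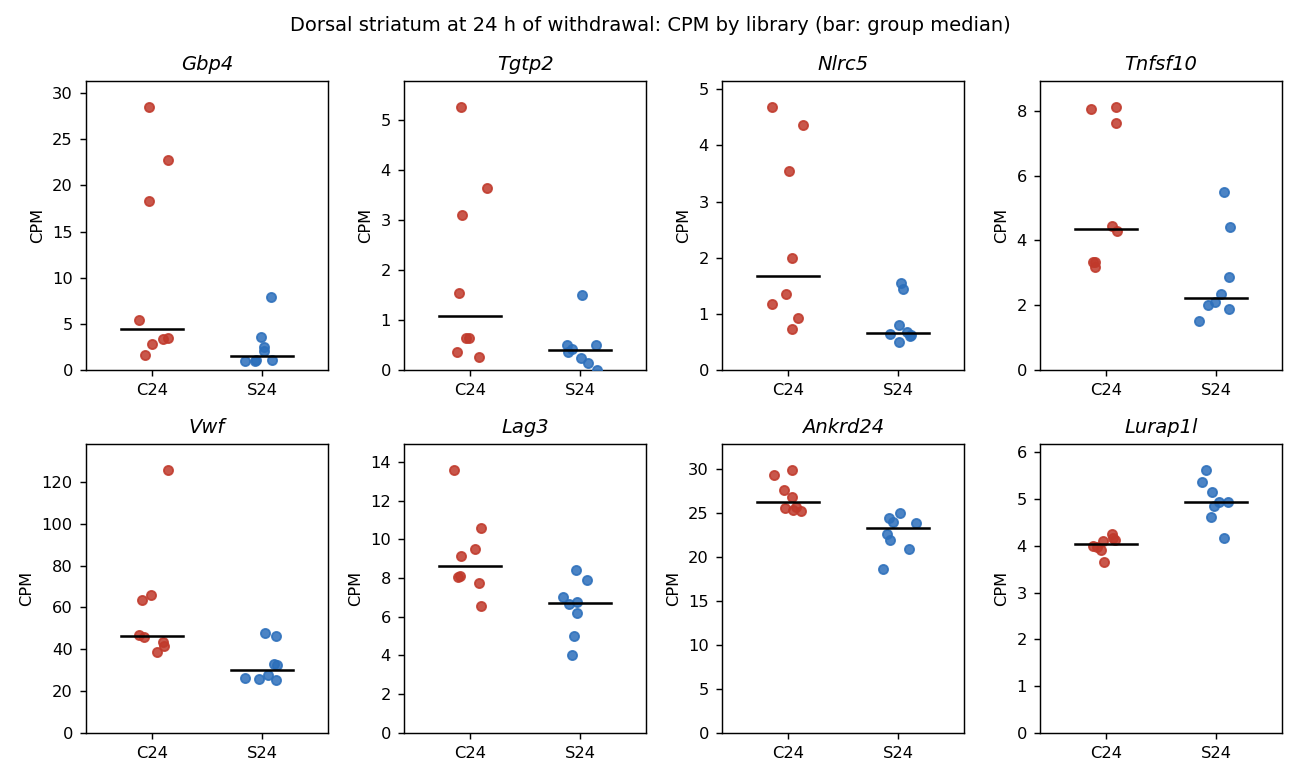
CPM (linear axes from 0) of 8 of the ranked genes in each dorsal striatum library, C24 on the left and S24 on the right of each panel, with a bar at the group median. Gbp4, Tgtp2, Nlrc5 and Tnfsf10 are high in 3 C24 mice and overlap between groups otherwise, while Ankrd24 does not overlap.

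Among the interferon-induced GTPase and guanylate-binding genes, 12 of 12 tested had a positive log2 fold change, against 50.2% of all genes tested, and all 12 had an unadjusted p under 0.05 in that direction, against 3.81% of all genes. Their median log2 fold change was 1.04, beside 0.00 over all genes, and they ran from 0.51 for Irgm1 to 2.09 for Gbp4. Gbp2 had 2.32 to 16.8 CPM in C24 and 1.80 to 5.09 CPM in S24 (log2 fold change 1.16), Gbp3 3.47 to 14.3 CPM in C24 and 1.44 to 6.50 CPM in S24 (0.94), and Gbp9 2.87 to 10.3 CPM in C24 and 1.73 to 5.66 CPM in S24 (0.67). The sum over the list was 142.6, 132 and 92.8 CPM in C24 mice Cpu-194, Cpu-223 and Cpu-203, 30.1 to 50.6 CPM in the other C24 mice, and 22.3 to 55.5 CPM in S24 mice. The list was chosen with earlier results of these libraries known, so its direction is a description of them. Gbp5 and Gbp6 were not analysed here.

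Class I antigen presentation genes were positive in 16 of 16 cases, against 50.2% of all genes, with a median log2 fold change of 0.56. Of these, 14 had an unadjusted p under 0.05, against 3.81% of all genes in that direction. Without C24 mouse Cpu-203 the median was 0.35. H2-Q7, a class Ib molecule, had 0.521 to 10.5 CPM (median 1.07) in C24 mice and 0.211 to 1.47 CPM (median 0.590) in S24 mice (log2 fold change 2.06, standard error 0.52). Here mice Cpu-203 and Cpu-223 were highest, at 10.5 and 4.16 CPM, and mouse Cpu-194 was at 0.976 CPM, within the S24 range. The classical molecule H2-K1 had 22.7 to 88.2 CPM in C24 and 14.6 to 32.7 CPM in S24 (0.67), and B2m, the class I light chain, had 41.1 to 109 CPM in C24 and 33.5 to 69.5 CPM in S24 (0.49). The sequences of H2-Q7 and H2-K1 overlap with other class I genes, in 39.2% and 22.8% of their 31-base words, so counts of single family members are uncertain. Psmb9, a subunit of the immunoproteasome, had 1.26 to 3.76 CPM in C24 and 0.7002 to 1.75 CPM in S24 (0.95), and Tap1, the peptide transporter, 1.82 to 8.32 CPM in C24 and 1.37 to 3.59 CPM in S24 (0.87).

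The other interferon pathway genes showed this pattern more weakly. Their mean log2 level, relative to each gene's mean over the 16 libraries, was 0.40, 0.32 and 0.28 in C24 mice Cpu-194, Cpu-203 and Cpu-223. It was at most 0.03 in the other C24 mice, 0.28 in S24 mouse Cpu-182 and at most 0.04 in the other S24 mice. Of 30 tested, 25 were positive, against 50.2% of all genes, with a median log2 fold change of 0.17. Of these, 7 had an unadjusted p under 0.05, all higher in C24, against 3.81% of all genes in that direction. Without single mice the median was 0.11 (C24 mouse Cpu-194) to 0.26 (S24 mouse Cpu-182), and without the 5 libraries over 50 CPM of Slc17a7, a cortical marker described next, it was -0.01. Irf1, a transcription factor induced by interferon gamma, had 3.61 to 7.54 CPM in C24 and 2.99 to 4.40 CPM in S24 (0.53). Ifit3, a classical target of type I interferon, had 3.23 to 8.02 CPM in C24 and 4.90 to 6.38 CPM in S24 (-0.02, adjusted p = 0.986). The 7 genes with an unadjusted p under 0.05 were Tnfsf10, Irf1, Stat2, Ddx58, Ifi35, Xaf1 and Zbp1. Zbp1 had the highest log2 fold change of the list, 1.34. Whether these genes answered to an interferon, and to which type, was not tested. Genes looked up after these values were seen were Ifng, with at most 0.0453 CPM in C24 and 0.0625 CPM in S24, and the T cell genes Cd3e and Cd8a, with at most 0.179 and 0.0802 CPM in C24 and 0.125 and 0.0765 CPM in S24. Cd74, the class II invariant chain, was at 4.24, 8.54 and 12.7 CPM in C24 mice Cpu-194, Cpu-203 and Cpu-223, at 1.204 to 1.51 CPM in the other C24 mice and at 0.455 to 2.69 CPM in S24 mice.

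Markers of cortical glutamatergic neurons, which the dorsal striatum lacks, were also high in these 3 C24 libraries. Slc17a7, a vesicular glutamate transporter, had 66.3, 124 and 66.0 CPM in C24 mice Cpu-194, Cpu-203 and Cpu-223 and 5.14 to 12.6 CPM in the other C24 mice. Among S24 mice it had 56.7 and 70.9 CPM in mice Cpu-185 and Cpu-193, where Gbp4 was 1.02 and 2.06 CPM, and 9.30 to 26.9 CPM in the rest, including mouse Cpu-191. The summed level of the 10 cortical markers ran from 160 to 297 CPM in C24 and from 149 to 243 CPM in S24, and none was at 0 in all libraries. Over the list, 9 of 10 had a positive log2 fold change, against 50.2% of all genes (median 0.25, none with an unadjusted p under 0.05). That median was -0.14 without C24 mouse Cpu-203, 0.10 without C24 mouse Cpu-223 and -0.10 in limma voom with quality weights, so its direction depended on 1 library. With the cortical marker score as a covariate, an alternative added after seeing the data, the median of the GTPase and guanylate-binding genes was 0.94 and Gbp4 had a log2 fold change of 1.88. Without the 5 libraries over 50 CPM of Slc17a7, which removes all 3 of these C24 mice and 2 S24 mice, the median was 0.01 and Gbp4 had a log2 fold change of 0.22. The class I genes had medians of 0.54 and 0.11 in these 2 alternatives.

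In the nucleus accumbens of the same mice, the same 3 C24 mice had the highest Gbp4. There Gbp4 was 27.8, 14.2 and 27.8 CPM in C24 mice Cpu-194, Cpu-203 and Cpu-223, 1.46 to 6.17 CPM in the other C24 mice, 7.48 CPM in S24 mouse Cpu-191 and 0.750 to 3.53 CPM in the other S24 mice. Slc17a7 in that region was 108 and 582 CPM in C24 mice Cpu-194 and Cpu-223 but 7.53 CPM in C24 mouse Cpu-203, and 229 and 305 CPM in S24 mice Cpu-185 and Cpu-193, so the accumbens library of mouse Cpu-203 had high Gbp4 at a low level of the cortical marker. These libraries come from the same animals and are not further replicates.

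**Figure D2:**
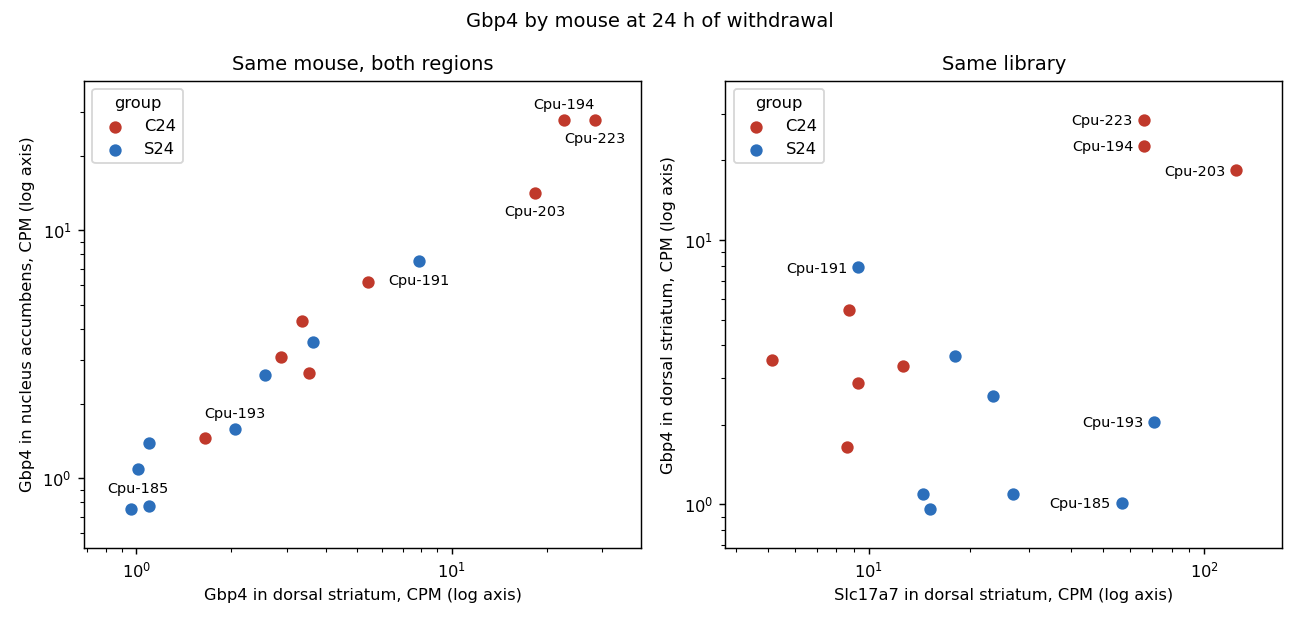
Left, Gbp4 in the dorsal striatum (x axis) against the nucleus accumbens (y axis) of each mouse, and right, Slc17a7 (x axis) against Gbp4 (y axis) in each dorsal striatum library, all in CPM on log axes. C24 mice Cpu-194, Cpu-203 and Cpu-223 are at 14.2 CPM or more of Gbp4 in both regions, and S24 mice Cpu-185 and Cpu-193 have high Slc17a7 with 1.02 and 2.06 CPM of Gbp4 in the dorsal striatum.

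Further genes among the 10 highest-ranked are not known mainly as interferon targets. Ankrd24, an ankyrin-repeat protein (chr10:81628540-81647610, plus strand), had 25.2 to 29.9 CPM (median 26.2) in C24 mice and 18.6 to 25.0 CPM (median 23.3) in S24 mice. It was the 1 gene of 16609 (0.00602%) whose C24 libraries all lay above all S24 libraries, and no gene (0%) had all C24 libraries below all S24 libraries. Its log2 fold change was 0.25 (standard error 0.07, adjusted p = 0.641). Lag3, an inhibitory receptor of lymphocytes that microglia also express, had 6.56 to 13.6 CPM (median 8.62) in C24 mice and 4.04 to 8.43 CPM (median 6.70) in S24 mice (0.50, standard error 0.12), with 7 of 8 C24 mice above the S24 median. Esyt1, a tether between the endoplasmic reticulum and the plasma membrane, had 7.90 to 12.8 CPM in C24 mice and 5.42 to 8.18 CPM in S24 mice (0.38, standard error 0.10), and 7 C24 mice lay above every S24 mouse. Vwf, the von Willebrand factor of endothelial cells, had 38.9 to 126 CPM (median 46.4) in C24 mice and 25.4 to 47.7 CPM (median 30.0) in S24 mice (0.84, standard error 0.21). Its highest value was that of C24 mouse Cpu-203, without which the log2 fold change was 0.57.

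The genes ranked lowest in C24 had small differences. Lurap1l (chr4:80910646-80955628, plus strand) had 3.65 to 4.26 CPM (median 4.05) in C24 mice and 4.17 to 5.62 CPM (median 4.94) in S24 mice. Only S24 mouse Cpu-191 overlapped the C24 mice, and the log2 fold change was -0.30 (standard error 0.08, adjusted p = 0.641). Txnip, the thioredoxin-interacting protein that restrains glucose uptake (chr3:96557957-96561883, plus strand), had 25.5 to 42.2 CPM (median 29.0) in C24 mice and 31.5 to 52.2 CPM (median 40.2) in S24 mice (-0.38, standard error 0.12, adjusted p = 0.821). Gjb6, a connexin of astrocyte gap junctions, had 20.1 to 27.9 CPM in C24 and 24.4 to 34.4 CPM in S24 (-0.27). Rit2, a neuronal small GTPase, had 65.6 to 81.3 CPM in C24 and 71.0 to 98.0 CPM in S24 (-0.18). For both genes all 8 C24 mice lay below the S24 median. Ttc30a1, Ap1s3, Prps1, Lsm8, Ddx19a and Nubpl completed the list, with log2 fold changes between -0.59 (Ap1s3) and -0.12 (Ddx19a) and adjusted p of 0.737 to 0.860.

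**Figure D3:**
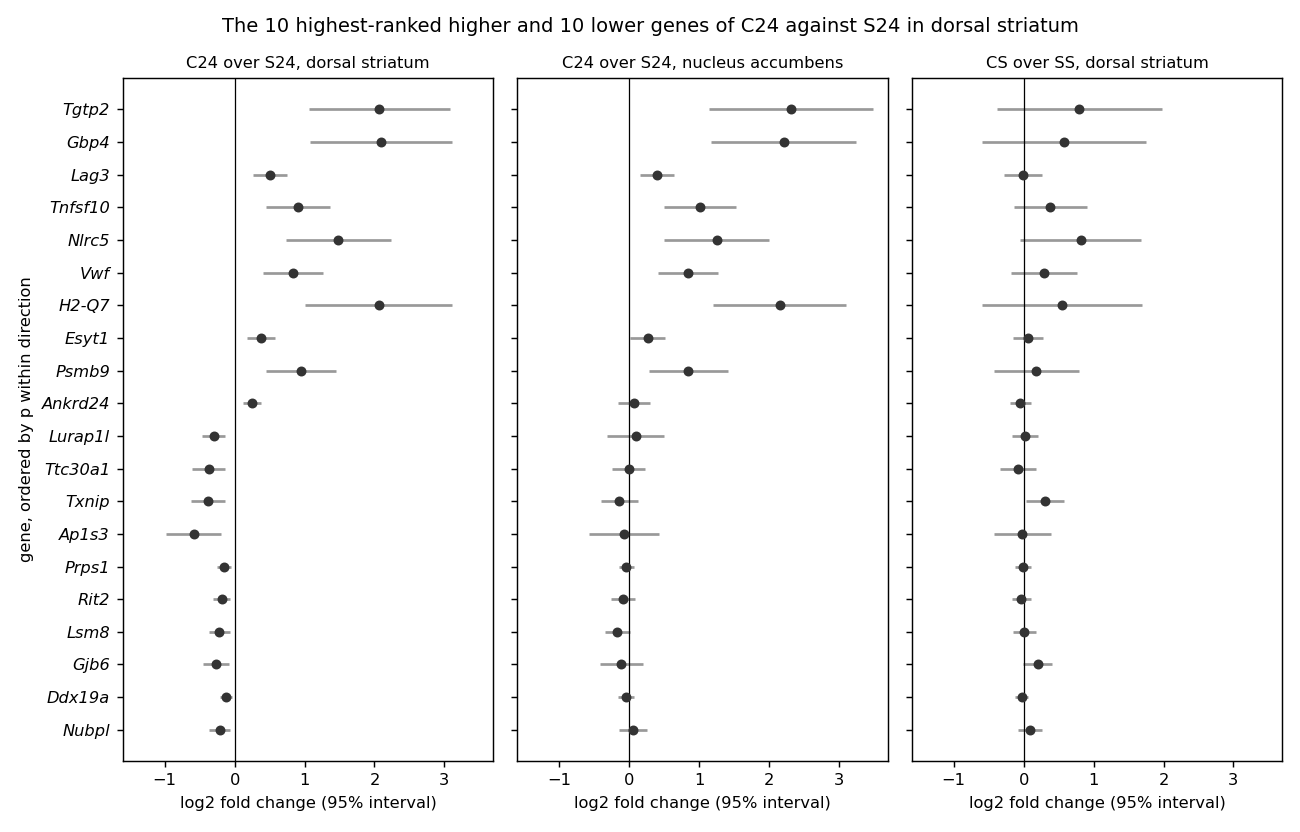
Log2 fold change (x axis) with 95% interval of the 10 highest-ranked higher and the 10 highest-ranked lower genes, for C24 over S24 in the dorsal striatum, C24 over S24 in the nucleus accumbens and CS over SS in the dorsal striatum. The genes were ranked by the first panel, so only the other panels hold values that the ranking did not use. All 10 higher genes lie above 0 in the accumbens, with Ankrd24 closest to it at 0.07. Of the lower genes 8 lie below 0 in the accumbens and 5 below 0 for CS over SS, where Txnip is at 0.31.

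Genes that define the projection neurons differed little between C24 and S24. Drd1 had, with TMM scaling as in all values that follow the region check, 331 to 404 CPM (median 385) in C24 mice and 388 to 425 CPM (median 399) in S24 mice (log2 fold change -0.09, 95% interval -0.21 to 0.02). Pdyn, which encodes dynorphin and is known to be induced by repeated cocaine, had 74.5 to 184 CPM (median 108) in C24 mice and 94.5 to 126 CPM (median 112.5) in S24 mice (0.00, -0.27 to 0.28). Drd2 of the indirect pathway had 172 to 229 CPM (median 206) in C24 mice and 185.4 to 249 CPM (median 221) in S24 mice (-0.10, -0.25 to 0.05). The groups overlapped for each of these genes. Penk, which encodes enkephalin, had 1543 to 1960 CPM in C24 and 1705 to 2507 CPM in S24 (-0.10), and Tac1, which encodes substance P, 264 to 333 CPM in C24 and 285 to 369 CPM in S24 (-0.12).

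Counts of positive genes in the projection neuron lists are to be read beside 50.2% of all genes and 43.4% of those with at least 10 CPM. Of 9 direct-pathway genes tested, 3 were positive and none had an unadjusted p under 0.05 (median -0.02), and of 9 indirect-pathway genes, 3 were positive (median -0.03). For every gene of both lists the 95% interval lay within a 1.5-fold difference. Only Gpr6, an orphan receptor of indirect-pathway neurons, had an unadjusted p under 0.05 in these lists, against 1.54% of all genes in its direction. It had 104 to 131 CPM (median 110) in C24 mice and 119 to 146 CPM (median 127) in S24 mice (-0.17, adjusted p = 0.888). Of 20 genes shared by both kinds of projection neuron, 5 were positive (median -0.03) and none had an unadjusted p under 0.05, and 19 had an interval within 1.5-fold. Ppp1r1b, which encodes the dopamine signal integrator DARPP-32, had 1635 to 2162 CPM in C24 and 1863 to 2254 CPM in S24 (-0.08). The sum over this list was lowest in C24 mouse Cpu-223, at 16277 CPM against 19038 to 21140 CPM in the other C24 mice. That library also had the highest summed ventral striatum markers of the C24 group, 641 CPM, and the lowest summed oligodendrocyte markers, 4479 CPM, and the part of these in the sum was not tested.

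Most signalling genes downstream of dopamine had a negative log2 fold change of small size. Of 24 cyclic nucleotide and MAP kinase signalling genes, 3 were positive, against 50.2% of all genes and 43.4% of those with at least 10 CPM. The median log2 fold change was -0.06 and all 24 intervals lay within 1.5-fold. Prkacb, a catalytic subunit of protein kinase A, was the 1 gene of the list with an unadjusted p under 0.05, against 1.54% of all genes in its direction. It had 535 to 702 CPM in C24 and 663 to 779 CPM in S24 (-0.14, adjusted p = 0.888), with all 8 C24 mice below the S24 median. The phosphodiesterase Pde4b had 178 to 224.6 CPM in C24 and 188 to 226 CPM in S24 (-0.06). Of 11 opioid and tachykinin genes 5 were positive, against 50.2% of all genes (median -0.05). The kappa receptor Oprk1, on which dynorphin acts, had 34.8 to 66.4 CPM in C24 and 29.4 to 56.1 CPM in S24 (0.02).

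Immediate early genes, which mark recent neuronal firing, varied widely within both groups. Fos had 4.12 to 24.4 CPM (median 12.1) in C24 mice and 3.14 to 19.6 CPM (median 10.98) in S24 mice (0.27, adjusted p = 0.904). Arc had 38.3 to 284 CPM (median 144.05) in C24 mice and 33.99 to 214.1 CPM (median 111.1) in S24 mice (0.42, adjusted p = 0.889). Npas4, an activity-dependent transcription factor, had 10.97 to 42.1 CPM (median 19.7) in C24 mice and 6.58 to 26.1 CPM (median 15.7) in S24 mice (0.61, adjusted p = 0.888). C24 mice Cpu-171 and Cpu-175 were highest, at 42.1 and 40.0 CPM, and the other C24 mice lay within the S24 range. Of 30 immediate early genes 13 were positive, against 50.2% of all genes, with a median of -0.02. Of the 30, only Npas4 and Ptgs2 had an unadjusted p under 0.05, both higher in C24, against 3.81% of all genes in that direction. Ptgs2, the inducible cyclooxygenase, singled out after its values were seen, had its highest value in C24 mouse Cpu-203, at 10.3 CPM, beside 1.999 to 6.67 CPM in the other C24 mice and 1.56 to 3.51 CPM in S24 mice.

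Synaptic receptor genes gave no member past the test, and all but a few intervals were narrow. Counts of positive genes in these lists are to be read beside 50.2% of all genes and 43.4% of those with at least 10 CPM. Of 22 AMPA and NMDA receptor genes 14 were positive (median 0.03), none had an unadjusted p under 0.05 and 21 intervals lay within 1.5-fold. Gria1, an AMPA receptor subunit whose insertion at accumbens synapses is a known feature of long cocaine withdrawal, had 527 to 607 CPM in C24 and 492 to 615 CPM in S24 (-0.01, 95% interval -0.11 to 0.08). Of 13 metabotropic glutamate receptor and scaffold genes 7 were positive (median 0.01). Homer1 had 189 to 281 CPM in C24 and 223.1 to 367 CPM in S24 (-0.15, adjusted p = 0.890). Of 17 GABA-A receptor and GABA synthesis genes 3 were positive (median -0.05). Gad1, which makes GABA, was the 1 gene of the list with an unadjusted p under 0.05, against 1.54% of all genes in its direction. It had 604 to 727 CPM in C24 and 667 to 776 CPM in S24 (-0.09, adjusted p = 0.888). Of 9 endocannabinoid genes 4 were positive (median -0.03), and the cannabinoid receptor Cnr1 had 174 to 559 CPM in C24 and 245 to 489 CPM in S24 (0.01).

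Growth factor and chromatin genes that have been studied in cocaine models were likewise close to 0. Bdnf, which in this tissue is scarce and was near 1 CPM, had 0.137 to 2.11 CPM in C24 and 0.486 to 1.91 CPM in S24 (-0.38, standard error 0.58), and its 95% interval, -1.56 to 0.80, leaves its direction undetermined. Its receptor Ntrk2 had 519 to 638 CPM in C24 and 406 to 682 CPM in S24 (-0.01). Of 15 neurotrophin and CDK5 signalling genes 3 were positive (median -0.03), against 50.2% of all genes and 43.4% of those with at least 10 CPM. Of 25 histone and DNA modifying enzyme genes 17 were positive, against the same shares (median 0.02), and every interval lay within 1.5-fold. The histone deacetylase Hdac5 had 124.5 to 180 CPM in C24 and 141 to 174 CPM in S24 (0.02), and the methylcytosine oxidase Tet1 14.5 to 22.7 CPM in C24 and 10.9 to 18.3 CPM in S24 (0.18, adjusted p = 0.889). Of 18 clock genes 10 were positive, against 50.2% of all genes (median 0.01), with all intervals within 1.5-fold. The core activator Arntl had 27.1 to 41.3 CPM in C24 and 30.3 to 58.8 CPM in S24 (-0.20, adjusted p = 0.888).

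Glucocorticoid-responsive genes, which report the action of stress hormone, were mostly lower in C24. Of 24 tested, 19 had a negative log2 fold change, against 49.8% of all genes, with a median of -0.13, and 5 had an unadjusted p under 0.05 in that direction, against 1.54% of all genes. Tsc22d3, which encodes GILZ, had 49.2 to 87.0 CPM (median 60.1) in C24 mice and 62.9 to 111.04 CPM (median 82.3) in S24 mice (-0.32, adjusted p = 0.888). Sgk1, a kinase induced by corticosterone, had 101 to 284 CPM (median 176) in C24 mice and 168 to 266 CPM (median 240) in S24 mice (-0.27, adjusted p = 0.888). For Tsc22d3 and Sgk1, 5 of 8 C24 mice lay below the S24 median, and the highest Sgk1 value was that of C24 mouse Cpu-194. Fkbp5, a co-chaperone of the glucocorticoid receptor, had 54.1 to 78.3 CPM in C24 and 60.4 to 89.2 CPM in S24 (-0.10), and the receptor gene Nr3c1 77.4 to 100 CPM in C24 and 83.5 to 113.4 CPM in S24 (-0.04).

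Heat shock and folding genes were negative in 24 of 24 cases (median -0.12), but none had an unadjusted p under 0.05. The share of negative genes was 49.8% of all genes, and 5559 of the 9814 genes with at least 10 CPM were negative. Their sum was 4037 to 4550 CPM in C24 mice, 6628 CPM in S24 mouse Cpu-182 and 3945 to 4824 CPM in the other S24 mice, and without mouse Cpu-182 the median was -0.03. Hspa5, the chaperone of the endoplasmic reticulum, had 155 to 217 CPM in C24 and 165 to 310 CPM in S24 (-0.20, adjusted p = 0.889). Oxidative phosphorylation subunit genes were negative in 70 of 71 cases (median -0.09), against 49.8% of all genes and 5559 of the 9814 genes with at least 10 CPM. Of the 71, 3 had an unadjusted p under 0.05, against 1.54% of all genes in that direction. Their sum was 8012 to 10049 CPM in C24 mice, 11077 CPM in S24 mouse Cpu-182 and 8321 to 9453 CPM in the other S24 mice, and without mouse Cpu-182 the median was -0.04. Mouse Cpu-182 was the S24 library with the lowest total count, and the part of that in these results was not tested. Cox4i1, a subunit of complex IV, had 272 to 379 CPM in C24 and 301 to 409 CPM in S24 (-0.07).

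**Figure D4:**
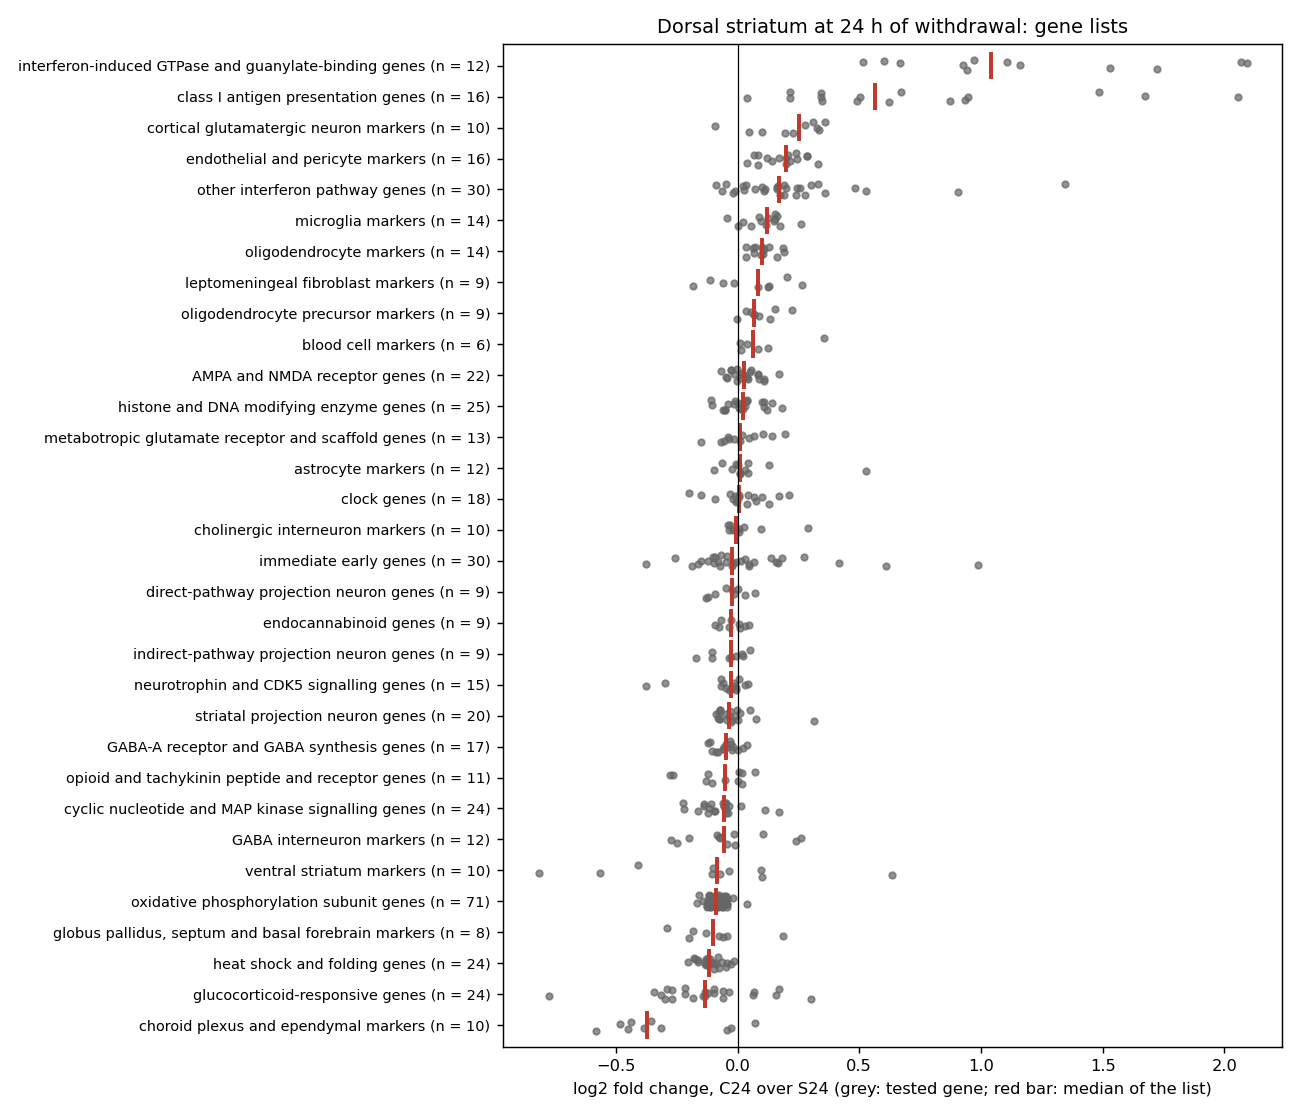
Log2 fold change of C24 over S24 (x axis) for each tested gene (grey points) of 32 gene lists (rows), with the median of each list as a red bar. The GTPase and guanylate-binding genes (median 1.04) and the class I genes (0.56) lie highest, the choroid plexus and ependymal markers (-0.37) lowest. Lists of projection neuron and interneuron genes lie near 0, and the cortical neuron markers are at 0.25.

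Markers of interneurons and of most glia did not separate the groups. Counts of positive markers are to be read beside 50.2% of all genes. Of 10 cholinergic interneuron markers 5 were positive (median -0.01, which turned to 0.00 with upper-quartile scaling and with library totals alone), and Chat, which makes acetylcholine, had 28.9 to 47.3 CPM in C24 and 28.3 to 41.6 CPM in S24 (0.10). Of 12 GABA interneuron markers 3 were positive (median -0.06). Only Pthlh had an unadjusted p under 0.05, lower in C24, against 1.54% of all genes in that direction. Sst had 110 to 160 CPM in C24 and 116 to 174 CPM in S24 (-0.04). Of 12 astrocyte markers 8 were positive (median 0.01). Gfap, which marks reactive astrocytes, had 13.99 to 73.1 CPM (median 29.0) in C24 mice and 20.97 to 29.5 CPM (median 22.5) in S24 mice (0.53, adjusted p = 0.888), with 3 C24 mice above every S24 mouse. All 14 oligodendrocyte markers were positive (median 0.10, and 0.03 without C24 mouse Cpu-175), against 50.2% of all genes, and none had an unadjusted p under 0.05. Of 9 markers of their precursors 8 were positive (median 0.07). Cspg4, which encodes NG2, was the only one with an unadjusted p under 0.05, against 3.81% of all genes in its direction. It had 19.0 to 24.6 CPM in C24 and 13.5 to 22.4 CPM in S24 (0.22, adjusted p = 0.888).

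Microglial and vascular markers were mostly positive by small amounts. Of 14 microglia markers 13 were positive (median 0.12, and 0.07 without S24 mouse Cpu-205), against 50.2% of all genes, and 3 had an unadjusted p under 0.05, against 3.81% of all genes in that direction. Among them was Csf1r, the receptor microglia need to survive, with 127 to 167 CPM in C24 and 103 to 140 CPM in S24 (0.17, adjusted p = 0.888). The microglia markers summed to 530 to 675 CPM in C24 and 429 to 620 CPM in S24. Of 16 endothelial and pericyte markers all were positive (median 0.20), against 50.2% of all genes, and 4 had an unadjusted p under 0.05, against 3.81%. Cldn5, a tight junction protein of brain vessels, had 18.9 to 49.4 CPM in C24 and 17.4 to 33.7 CPM in S24 (0.20, adjusted p = 0.906). The vascular sum was 857 CPM in C24 mouse Cpu-203 and 559 to 706 CPM in the other C24 mice, and 768 CPM in S24 mouse Cpu-225 and 477 to 607 CPM in the other S24 mice. Mouse Cpu-203 was also the C24 mouse with the highest Vwf, H2-Q7 and Esyt1. Its part in the vascular result was measured by leaving it out, which gave a median of 0.10.

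Tissue from around the dorsal striatum differed between single libraries more than between groups. Ventral striatum markers summed to 300 to 641 CPM in C24 and 387 to 546 CPM in S24, with 3 of 10 positive, against 50.2% of all genes. The median of these markers was -0.09, and it was -0.67 without C24 mouse Cpu-223 and 0.02 without S24 mouse Cpu-205. Markers of the globus pallidus, septum and basal forebrain had 1 of 8 positive, against 50.2% of all genes (median -0.10). Choroid plexus and ependymal markers had 1 of 10 positive (median -0.37, and -0.25 without C24 mouse Cpu-175), against 50.2% of all genes, and none had an unadjusted p under 0.05. The blood markers, 6 of 6 positive against 50.2% of all genes (median 0.06, and -0.07 without C24 mouse Cpu-175), had intervals wider than 1.5-fold in 5 genes. Among leptomeningeal fibroblast markers 5 of 9 were positive, against 50.2% of all genes (median 0.08, and 0.01 without S24 mouse Cpu-205). The collagen gene Col1a1 was the only one with an unadjusted p under 0.05, against 3.81% of all genes in its direction. It had 2.04 to 3.24 CPM in C24 and 1.61 to 2.78 CPM in S24 (0.27, adjusted p = 0.888).

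**Figure D5:**
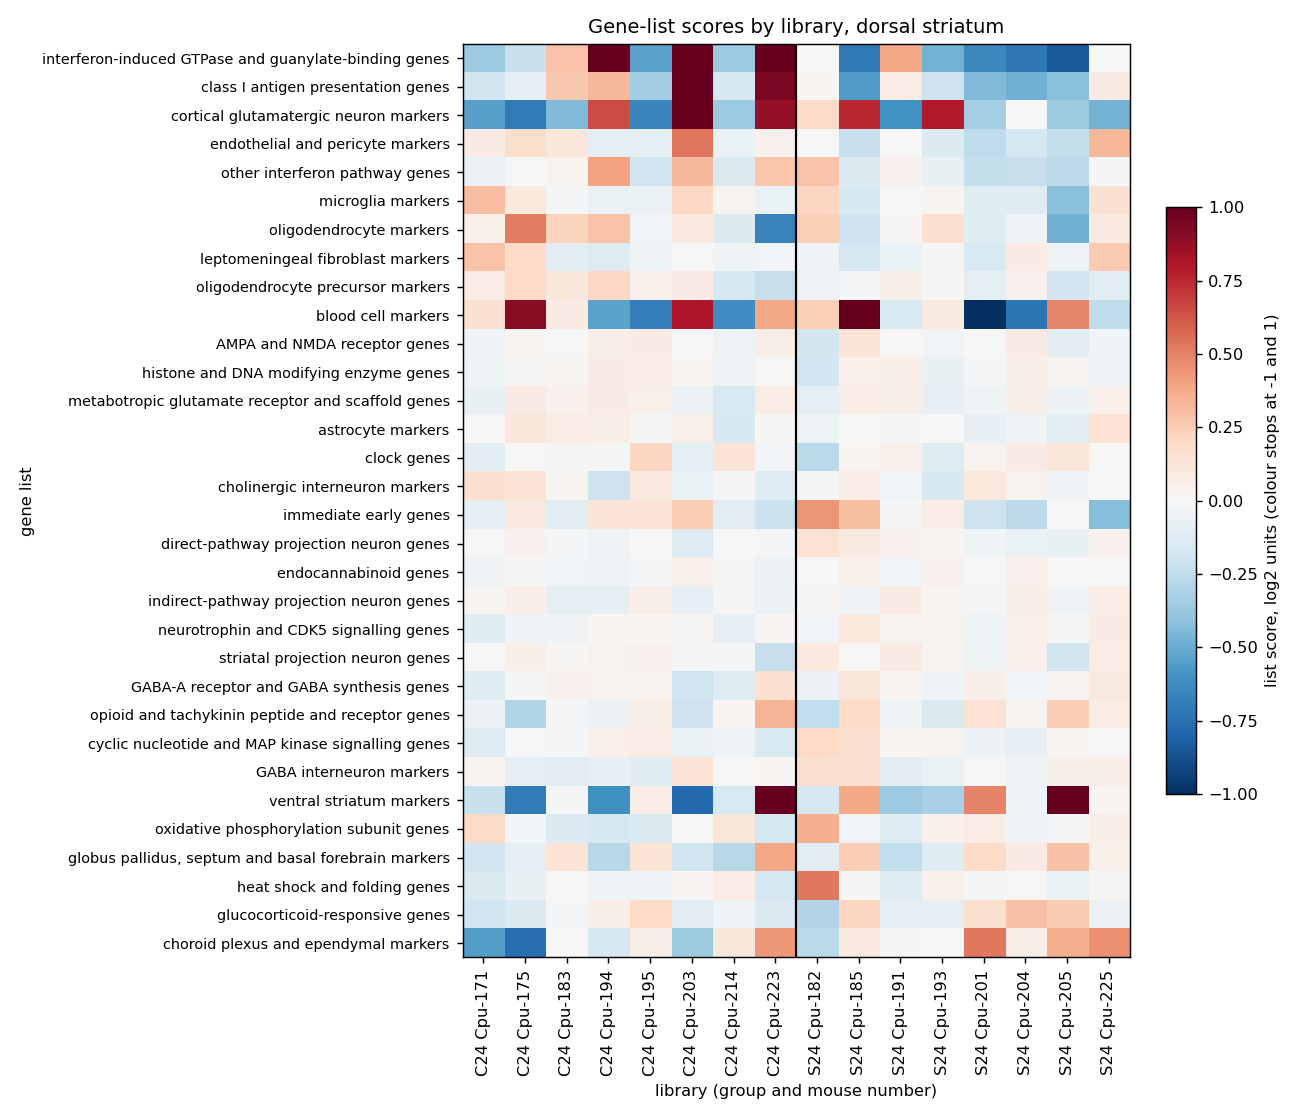
Score of 32 gene lists (rows, ordered by median log2 fold change) in each of the 16 libraries (columns, C24 to the left of the line and S24 to the right). The score is the mean over the list's tested genes of log2(CPM + 0.5) minus the gene's mean over the libraries, and the colour scale stops at -1 and 1. The row of GTPase and guanylate-binding genes is high in C24 mice Cpu-194, Cpu-203 and Cpu-223, the class I row in Cpu-203 and Cpu-223, the cortical row in all 3 and in S24 mice Cpu-185 and Cpu-193, and the heat shock row is high in S24 mouse Cpu-182.

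The same contrast was tested against the nucleus accumbens, the ventral part of the striatum, in the same mice. In the accumbens alone, edgeR called 0 of 16935 genes (0%), with 391 genes (2.31%) at an unadjusted p under 0.05, and DESeq2 and limma voom also called 0. Tgtp2 had a log2 fold change of 2.31 there beside 2.07 in the dorsal striatum, H2-Q7 2.15 beside 2.06, Vwf 0.84 beside 0.84, and Lag3 0.40 beside 0.50. Ankrd24 had 0.07 there beside 0.25. Of the 10 highest-ranked higher genes, 10 were positive in the accumbens, against 51.4% of all genes there, and 9 had an unadjusted p under 0.05, against 1.95% of all genes in that direction. Of the 10 lower ones 8 were negative, against 48.6%, and none had an unadjusted p under 0.05, against 0.36%. The mice are shared, so the accumbens values of a gene are not independent of those that ranked it.

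The difference between the 2 regions in C24 against S24 was called for 0 of 16576 genes (0%) with limma voom, and 133 genes (0.802%) had an unadjusted p under 0.05. edgeR called 0 as well. The numbers were taken as pairing the libraries of a mouse, and both fits with the mouse as a block also called 0. Fzd8, a Wnt receptor, had the smallest p of the genes with a more negative effect in the dorsal striatum. Its log2 fold change was -0.34 in the dorsal striatum and 0.34 in the accumbens (difference -0.71, standard error 0.20, adjusted p = 1.00). Akna, a centrosomal protein, had -0.05 in the dorsal striatum and 0.38 in the accumbens (difference -0.43), and Foxj1, the regulator of motile cilia in ependymal cells, -0.44 in the dorsal striatum and 0.28 in the accumbens (difference -0.75). Catsper2, a sperm cation channel gene, was the first in the other direction, with 0.25 in the dorsal striatum and -0.14 in the accumbens (difference 0.40, standard error 0.13), followed by Pms1 (0.38), a mismatch repair gene, and Ccdc77 (0.24).

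The contrast at 24 h was also set against that at 30 d of withdrawal in the same tissue, where both CS and SS mice had received a saline injection 1 h before. CS against SS gave 0 of 16609 genes (0%) with edgeR, with 388 genes (2.34%) at an unadjusted p under 0.05, 0 with limma voom and 1 with DESeq2. No library is shared between the 2 contrasts. Across the 16609 genes their log2 fold changes had a Pearson correlation of 0.07 and a Spearman correlation of 0.10, with genes not being independent replicates. Gbp4 had 1.70 to 10.4 CPM in CS mice and 1.69 to 3.28 CPM in SS mice (log2 fold change 0.58, standard error 0.58), and Tgtp2 0.354 to 2.08 CPM in CS and 0.210 to 0.755 CPM in SS (0.80, standard error 0.58). The GTPase and guanylate-binding genes were positive in 12 of 12 cases at 30 d, against 50.3% of all genes, with a median of 0.50 beside 1.04 at 24 h, and the class I genes in 14 of 16 cases, with a median of 0.10 beside 0.56. No gene of these lists had an unadjusted p under 0.05 at 30 d, against 2.34% of all genes in either direction. Cortical glutamatergic neuron markers were positive in 8 of 10 cases at 30 d, with a median of 1.08 beside 0.25 at 24 h, and their part in the 30 d values was not tested.

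The difference between the effects at 24 h and at 30 d was called for 0 of 16609 genes (0%), and 471 (2.84%) had an unadjusted p under 0.05. DESeq2 and limma voom called 0 as well. Txnip had the smallest p among genes with a more negative effect at 24 h, with -0.38 at 24 h and 0.31 at 30 d (difference -0.69, standard error 0.18, adjusted p = 1.00). At 30 d it had 36.8 to 52.3 CPM in CS mice and 30.1 to 46.9 CPM in SS mice. Gjb6 had -0.27 at 24 h and 0.20 at 30 d (difference -0.47), and Bmper, a modulator of bone morphogenetic proteins, -0.16 at 24 h and 0.20 at 30 d (difference -0.36). In the other direction, Pkn3, a protein kinase, had 0.44 at 24 h and -0.47 at 30 d (difference 0.91, standard error 0.26), Fgd2, a guanine nucleotide exchange factor, 0.36 at 24 h and -0.15 at 30 d (difference 0.52), and Lacc1, an immunometabolic enzyme of macrophages, 0.32 at 24 h and -0.14 at 30 d (difference 0.46). The glucocorticoid-responsive genes had a median of -0.13 at 24 h and 0.11 at 30 d, with 21 of 24 positive at 30 d. Each of these differences had an adjusted p of 1.00.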

How the data were processed

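Whole dissected tissue gave RNA that was depleted of ribosomal RNA before ScriptSeq library construction, per the labels' protocols, although the labels enter polyA RNA as the molecule. The authors deposited unnormalized read counts in 1 table of 43346 Ensembl genes and 230 libraries. The submitters' processing notes name mm10 as the build and list HTSeq and limma. The aligner, the annotation release and the strand setting of the counting are not given in the sources used here, so reads of overlapping and antisense genes cannot be told apart. Symbols and positions came from GENCODE release M21 (GRCm38), which named 98.0% of the identifiers.

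C24 was compared with S24 in R 4.3.3 with edgeR 4.0.16: TMM scaling, filterByExpr with a minimum count of 10, and the quasi-likelihood test with Benjamini-Hochberg adjustment over all genes kept. The fit held all 42 dorsal striatum libraries in 6 condition groups, which share 1 estimate of the spread. CS against SS and the difference between 24 h and 30 d came from the same fit, and the accumbens from a like fit of its own. The difference between regions was tested with limma 3.58.1 on voom weights over 32 libraries. Alternatives were DESeq2 1.42.0, limma voom with and without quality weights, other scalings, other filters, 2 surrogate variables (sva 3.50.0), the 16 libraries alone and each library left out in turn. A pair of alternatives was added after seeing the data: the cortical marker score as a covariate, and leaving out the 5 libraries over 50 CPM of Slc17a7. The scripts were tested on simulated counts with known changes.

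CPM are scaled by the TMM-adjusted library total, except in the check of the region, and levels of different genes are not comparable since they are not divided by length. Library titles end in a number, which was read as that of the mouse. Libraries of the same number in the dorsal striatum and accumbens tended to deviate together from their group means, with a median correlation of 0.204 (10 of 16 mice above 0.1). Between different mice of the same condition the median was -0.03 (27 of 112 pairs above 0.1). The highest correlation was 0.442 between different mice and 0.329 within a mouse. Where the numbers do not mark separate animals, p-values measure only the spread between these libraries.

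The comparison, the gene lists and the named genes were chosen with earlier results of these data known. Named genes are, among protein-coding genes with a mean of at least 1 CPM, the 10 of smallest p in each direction, the first 4 tested genes of each of 32 lists, and the 3 of smallest p in each direction of each test of a difference. Other genes are named where a text on a list singles them out, and were then chosen after their values were seen. Counting error and the spread between mice were not measured apart. List genes absent from the table (6) were not analysed here. Some genes that the naming rule covers are not reported here.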

Additional observations from a re-analysis of the deposited data

Results flagged for a closer look

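In 14 of the 116 groups of 8 values examined, the highest or lowest library stood far from the other 7 of its group by Dixon's criterion at the 95% level. Chance alone flags about 1 in 20 groups, and many of these values come from the same libraries.

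S24 mouse Cpu-182 accounted for 7 of them. Its library had the lowest total, 15981104 counts against 23458326 to 28701555 in the other S24 libraries, with 20370 genes that had a count and 15017 genes with at least 10 counts. Its summed CPM was the highest of S24 for indirect-pathway genes (3558), opioid and tachykinin genes (3132), heat shock and folding genes (6628) and oxidative phosphorylation subunit genes (11077). C24 mouse Cpu-203 had the highest C24 value of Vwf (126 CPM), of H2-Q7 (10.5 CPM) and of Esyt1 (12.8 CPM). S24 mouse Cpu-191 had the highest S24 value of Tgtp2 (1.505 CPM) and of Gbp4 (7.87 CPM). C24 mouse Cpu-223 had the lowest C24 sum of striatal projection neuron genes (16277 CPM). S24 mouse Cpu-225 had the highest S24 sum of endothelial and pericyte markers (768 CPM). Why these libraries stood apart was not tested.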

How the results depend on the processing

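C24 against S24 gave 0 genes past an adjusted p of 0.05 in every fit run: edgeR with TMM, upper-quartile scaling or library totals alone, with no filter or a mean of at least 1 CPM, with the 16 libraries alone, with 2 surrogate variables, both added alternatives, DESeq2, limma voom with and without quality weights, and each of 16 fits without 1 library. In those 16 fits 692 to 1331 genes had an unadjusted p under 0.05, and the smallest adjusted p of any fit was 0.0861, without S24 mouse Cpu-191. The difference between regions gave 0 genes with and without the replicate block, run both as a within-mouse difference and through duplicateCorrelation, and the paired fits changed no call. The difference between 24 h and 30 d gave 0 genes in every fit run. CS against SS gave 1 gene with DESeq2, the predicted gene Gm11410 (log2 fold change 4.94, adjusted p = 0.0110), against 0 with edgeR and limma voom, and the cause was not tested. The difference in total counts, a mean of -502985 in C24 against S24, lay between -1696764 and 120444 when 1 library was left out.

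Of 4205 values of 156 named genes under the alternatives, 4181 moved by less than the spread between libraries and 24 by more, and none came past the threshold. For 67 of these genes, none of them among the 20 ranked ones, the sign turned under some alternative. Of 864 list medians 861 moved by less than the spread between libraries. The 3 that moved more, all without the 5 libraries over 50 CPM of Slc17a7, were those of the GTPase and guanylate-binding genes (0.01), the class I genes (0.11) and the cortical markers (-0.64). For 15 of the 32 lists the median turned sign under some alternative. Their reported medians lay between -0.10 (globus pallidus, septum and basal forebrain markers) and 0.25 (cortical markers), and the directions of these lists are undetermined. Intervals limit statements on genes under 1 CPM, where 23.8% of the 95% intervals lay within a 1.5-fold difference.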

Other observations

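The sign of the log2 fold change varied with expression level. Of the 4567 genes with a mean of 1 to 10 CPM, 60.3% had a positive log2 fold change in C24 against S24 (median 0.04), and of the 9814 genes with a mean of at least 10 CPM 43.4% did (median -0.01). Lists of abundant transcripts, such as the oxidative phosphorylation and heat shock genes, are to be read beside the second value.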
